A study of Mus musculus with 24 samples.

Results

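The core circadian clock was followed in mouse epididymal white adipose tissue (eWAT) through 10 genes chosen by symbol: Arntl, Clock, Per1, Per2, Per3, Cry1, Cry2, Nr1d1, Nr1d2 and Dbp. All 10 were found among the 16730 genes of the deposited count table, and all 10 were among the 15020 genes that entered the tests, which had to reach 1 CPM (counts scaled to a common library size) in 3 or more libraries. The choice was made by symbol and applied no threshold to measured values. Earlier results of these data were known when it was made. Each had between 50 and 1453 counts in every library, so none was near the limit of detection.

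The data were 3′ tag RNA sequencing libraries (QuantSeq, which reads the 3′ end of each transcript) from the eWAT of 24 male mice, 6 in each of 4 groups. Mice were on a C57BL/6 background, were 24 to 26 weeks old at collection, and all carried the floxed Lama4 allele. Control littermates (Lama4 fl/fl) kept laminin alpha 4, a basement membrane chain, and knockout mice (Lama4 AKO) also carried adiponectin-Cre, which deletes the floxed exon in adipocytes and leaves the other cells of the depot intact. Each genotype was fed breeder chow or a high-fat diet (HFD, 45% fat) for 20 weeks. The comparisons asked whether clock gene levels differed by diet, by genotype, and by the diet response of each genotype. The mice lived under a light-dark cycle, but the time of day at which tissue was taken is not given in the sources used here.

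The clock is a transcriptional feedback loop present in most cells, adipocytes included. The proteins of Arntl (also called Bmal1) and Clock form a pair that binds E-box sequences and turns on the Per and Cry genes, whose proteins return to the nucleus and repress that pair. In a second loop, the nuclear receptors of Nr1d1 and Nr1d2 (REV-ERB alpha and beta) are turned on by the same pair and repress Arntl through ROR elements, while Dbp, an activator that binds D-boxes, carries the rhythm to output genes. In rhythmic tissue, Arntl therefore peaks opposite to Nr1d1, Dbp and the Per genes, and libraries taken at different clock times would differ along that axis.

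The 250 bases before the transcription start of 4 members are shown for 2 reasons: Nr1d1 and Nr1d2 are paralogues with contrasting diet values below, and Cry1 and Per3 hold the most matches to the motifs searched. The sequences are RefSeq's, on GRCm38.p6, 5′ to 3′ on the strand of the gene, with matches in capitals: E-box CACGTG, E-box variant CACGTT, D-box TTANGTAA and ROR element core TAGGTCA, each searched on both strands, with no match overlapping another in these windows.
Nr1d1 (chr11:98775378-98775627, minus strand): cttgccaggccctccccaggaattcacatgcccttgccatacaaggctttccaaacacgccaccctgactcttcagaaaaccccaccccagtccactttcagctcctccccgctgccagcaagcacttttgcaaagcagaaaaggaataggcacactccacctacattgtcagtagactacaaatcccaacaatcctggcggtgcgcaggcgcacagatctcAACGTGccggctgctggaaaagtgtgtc
Nr1d2 (chr14:18239107-18239356, minus strand): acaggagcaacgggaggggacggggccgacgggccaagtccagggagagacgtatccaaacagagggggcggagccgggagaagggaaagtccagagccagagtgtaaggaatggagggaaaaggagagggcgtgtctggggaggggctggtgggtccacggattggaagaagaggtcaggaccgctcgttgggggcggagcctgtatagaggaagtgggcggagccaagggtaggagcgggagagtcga
Cry1 (chr10:85185055-85185304, minus strand): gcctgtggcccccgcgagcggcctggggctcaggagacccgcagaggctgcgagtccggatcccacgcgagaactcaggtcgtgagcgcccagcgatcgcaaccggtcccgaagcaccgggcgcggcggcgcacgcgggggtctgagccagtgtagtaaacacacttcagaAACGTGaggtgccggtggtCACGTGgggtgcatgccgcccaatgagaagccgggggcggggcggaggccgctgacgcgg
Per3 (chr4:151044666-151044915, minus strand): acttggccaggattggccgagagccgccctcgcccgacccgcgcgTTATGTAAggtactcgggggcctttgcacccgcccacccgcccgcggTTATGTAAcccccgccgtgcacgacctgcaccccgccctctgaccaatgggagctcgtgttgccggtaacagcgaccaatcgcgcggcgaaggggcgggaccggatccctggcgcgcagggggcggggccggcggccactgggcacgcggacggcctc
In these windows Nr1d1 held 1 E-box variant that begins 28 bases before the start, and Nr1d2 held none of the 4 motifs. Bases just after the RefSeq start were found in a GENCODE transcript for Nr1d2, Cry1 and Per3, but not for Nr1d1. The Nr1d1 window and distance therefore hold for the RefSeq start only. Cry1 held an E-box at 60 and a variant at 79 bases before the start, and Per3 held D-boxes at 205 and 158 bases. Of 13 windows for 9 of the clock genes, 2 held an E-box, 3 the variant, 1 a D-box and 0 the ROR core, against 6.02%, 3.85%, 2.06% and 2.23% of all 32851 windows of this length. A match describes the letters and not a bound site, and motifs outside the window were not searched.

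Library totals ran from 5579590 to 18764516 counts, so a clock gene's counting error was smaller than its spread between mice. The libraries differed widely in makeup. The first principal component of all tested genes (PC1) took 45.8% of the variance, and along it the HFD-fed Lama4 fl/fl mice split into replicates 1, 2 and 5 at 48.2 to 73.5 and replicates 3, 4 and 6 at -76.1 to -9.88. Lower PC1 went with more adipocyte and less macrophage marker RNA. The summed level of 8 adipocyte markers, all of them detected, ran from 2766 to 20341 CPM over the libraries and that of 8 macrophage markers from 1413 to 11855 CPM, so the adipose identity of the samples was clear in every library. Of 6 epididymis markers only 2 were in the table, and their sum stayed at or below 0.526 CPM except in chow-fed Lama4 fl/fl replicate 4, at 17.6 CPM, and chow-fed Lama4 AKO replicate 5, at 3.24 CPM. All of this is bulk RNA, in which fewer cells of a type and less RNA per cell cannot be told apart.

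Lama4 itself cannot check the genotype labels, because a 3′ tag lies outside the deleted exon. Gm28586, a transcript whose counts followed the knockout label in these libraries, had 6 to 50 counts in all 12 Lama4 AKO libraries and 0 counts in 11 of the 12 Lama4 fl/fl libraries, but 33 counts in the library labelled HFD-fed Lama4 fl/fl replicate 2. The fitted values of Arntl, Clock and Nr1d2 that this library enters are therefore also given without it. A smaller set of 19 libraries, without chow-fed Lama4 fl/fl replicate 3, chow-fed Lama4 AKO replicate 5 and HFD-fed Lama4 fl/fl replicates 3, 4 and 6, is an inference about which mice the study kept after its own principal components analysis. Those 5 libraries were set apart on their expression, so the 19 are not an independent set, and their values are given only beside those of all 24. Leaving the library in doubt out of the 19 as well gives 18, with HFD-fed Lama4 fl/fl replicates 1 and 5 alone in their group.

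The main result was that most of the clock did not pass the test in any comparison, with Nr1d2 the exception. Genes were called by the study's criteria: a change of 1.5-fold or more in either direction, a nominal p no higher than 0.001 by edgeR's quasi-likelihood test, and 2 CPM or more as the mean of the higher group. HFD against chow called 0 of 10 clock genes in Lama4 fl/fl mice (0.173% of all genes tested were called) and 1 of 10, Nr1d2, in Lama4 AKO mice (4.12% of all genes). Averaged over both genotypes, the diet comparison again called Nr1d2 only (2.22% of all genes). Lama4 AKO against Lama4 fl/fl called 0 of 10 on chow (0.113% of all genes) and 0 of 10 on HFD (0.173%), and the interaction of diet and genotype called 0 of 10 (0.386%). At an adjusted p of at most 0.05, 2 of 10 passed for diet in Lama4 AKO mice, Nr1d2 and Clock (22.1% of all genes passed), and 1 of 10, Nr1d2, for the averaged diet comparison (12.4%). A count of 1 or 2 among 10 is too small to be read as more or less than these shares.

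**Figure D1:**
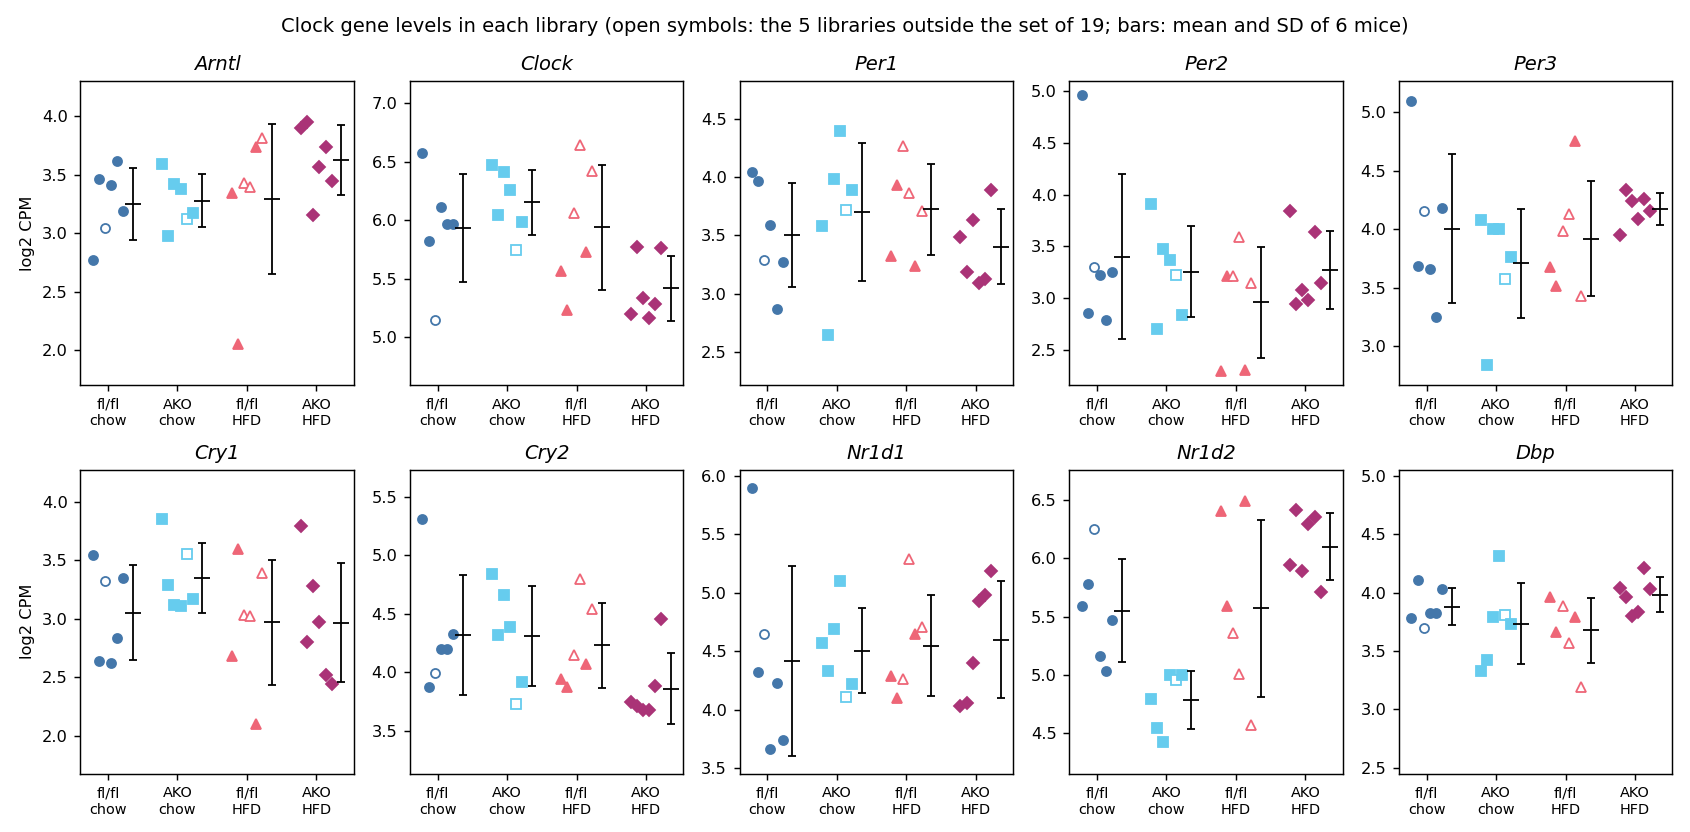
Level of each clock gene (log2 CPM, y axis) in each of 24 libraries by genotype and diet (x axis); each symbol is 1 mouse, open symbols are the 5 libraries outside the set of 19, and black bars give the mean and SD of 6 mice. Nr1d2 in HFD-fed Lama4 AKO mice (52.3 to 85.2 CPM) lies above all chow-fed Lama4 AKO mice (21.4 to 31.9 CPM), while the groups of the other 9 genes overlap.

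Among the activators, Arntl varied little between groups. In chow-fed Lama4 fl/fl mice its lowest, median and highest levels were 6.70, 9.74 and 12.1 CPM, and in chow-fed Lama4 AKO mice 7.72, 9.58 and 11.9 CPM. On HFD they were 3.99, 10.5 and 14.0 CPM in Lama4 fl/fl and 8.75, 12.5 and 15.4 CPM in Lama4 AKO mice. All 4 groups overlapped, and the lowest value of the series was that of HFD-fed Lama4 fl/fl replicate 2, the library whose label Gm28586 went against. The fitted log2 difference between HFD and chow was 0.11 in Lama4 fl/fl mice, with a 95% interval from -0.34 to 0.56. With that library left out it was 0.28 (edgeR adjusted p = 0.592), and it was -0.12 in the 19 libraries and 0.24 in the 18, so its sign turned with the libraries used.

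Clock, the partner of Arntl, had its lowest group median in HFD-fed Lama4 AKO mice, although the lowest single value was that of chow-fed Lama4 fl/fl replicate 3. Its lowest, median and highest levels were 53.4, 71.1 and 88.6 CPM in chow-fed and 35.6, 39.4 and 54.4 CPM in HFD-fed Lama4 AKO mice. In Lama4 fl/fl mice they were 35.3, 62.3 and 95.1 CPM on chow and 37.4, 59.6 and 99.5 CPM on HFD. The 2 Lama4 AKO groups overlapped only where the highest HFD-fed mice met the lowest chow-fed mouse, replicate 5, whereas the Lama4 fl/fl groups overlapped over nearly their whole range. In Lama4 AKO mice the log2 fold change with HFD was -0.74 (SE 0.225, edgeR adjusted p = 0.0289), past the adjusted threshold but not past the nominal p of 0.001 that a call needed. With single libraries left out the edgeR adjusted p ran from 0.0141 to 0.0689. It was above 0.05 without replicate 1 or 3 of the chow-fed or replicate 1, 4 or 5 of the HFD-fed Lama4 AKO mice. The change was -0.81 (SE 0.160, edgeR adjusted p = 0.00101) and called in the 19 libraries.

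In Lama4 fl/fl mice the diet difference of Clock turned with the libraries used. It was 0.03 in all 24 (edgeR adjusted p = 0.977) and 0.15 without HFD-fed replicate 2. The 19 libraries gave -0.60 (SE 0.197, edgeR adjusted p = 0.0296), past the adjusted threshold, as were 29.0% of all genes there, and in the 18 it was -0.47 (edgeR adjusted p = 0.112).

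The other comparisons of Clock did not pass the adjusted threshold in all 24 libraries. On HFD, Lama4 AKO minus Lama4 fl/fl was -0.58 on the log2 scale (SE 0.225, edgeR adjusted p = 0.293), which became -0.70 without HFD-fed Lama4 fl/fl replicate 2 (edgeR adjusted p = 0.119) and -0.42 without replicate 4 of that group. It was -0.08 in the 19 libraries (edgeR adjusted p = 0.940) and -0.21 in the 18. The interaction was -0.77 (SE 0.317, edgeR adjusted p = 0.275) in all libraries, -0.88 with replicate 2 of the HFD-fed Lama4 fl/fl mice left out, -0.21 in the 19 and -0.34 in the 18, so a diet effect on Clock that differs between the genotypes was not established. Averaged over both genotypes the diet difference was -0.35 (SE 0.158, edgeR adjusted p = 0.115), or -0.29 without that library, and in the 19 libraries it was -0.70 and called (edgeR adjusted p = 0.000225).

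The Period genes encode repressors of the activator pair, and none of the 3 passed in any comparison of the 24 libraries. Per1, which also responds quickly to outside signals, had medians of 10.8 CPM on chow and 13.7 CPM on HFD in Lama4 fl/fl mice, and 13.8 CPM on chow in Lama4 AKO mice, where HFD-fed mice ran from 8.40 to 14.7 CPM. Per2 ran from 6.76 to 31.0 CPM on chow and from 4.76 to 11.9 CPM on HFD in Lama4 fl/fl mice, and from 6.38 to 14.9 CPM on chow and from 7.55 to 14.2 CPM on HFD in Lama4 AKO mice, with medians between 8.48 and 9.71 CPM. A single mouse, chow-fed Lama4 fl/fl replicate 1, set the top of that range, and the medians of the 4 groups lay close together in the 24 libraries. Per3, a weaker member of the repressor group, had medians of 15.2, 14.2, 14.6 and 18.2 CPM in the same order, and all 4 groups overlapped. The HFD-fed Lama4 AKO mice were the tightest group for Per3, at 15.3 to 20.0 CPM. For Per2 the diet difference in Lama4 fl/fl mice depended on the libraries used. It was -0.59 on the log2 scale in all 24 and -1.01 in the 19 (edgeR adjusted p = 0.0957). In the 18 it was -1.39 (edgeR adjusted p = 0.0522), with an interaction of 1.37 (edgeR adjusted p = 0.249), so neither passed the adjusted threshold.

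The cryptochromes, which bind the activator pair directly, likewise passed in no comparison of the 24 libraries. Cry1 had medians of 8.42 CPM on chow and 8.01 CPM on HFD in Lama4 fl/fl mice, and of 9.22 and 7.25 CPM in Lama4 AKO mice, and the ranges of the 4 groups overlapped. Cry2 ran from 13.1 to 28.5 CPM in chow-fed and from 12.6 to 21.8 CPM in HFD-fed Lama4 AKO mice. HFD-fed replicates 2, 3 and 4 lay under every chow-fed mouse. Replicates 1 and 5, at 13.3 and 14.6 CPM, lay above only the lowest chow-fed mouse, and replicate 6 stood above the other HFD-fed mice. In the Lama4 fl/fl mice Cry2 ran from 14.5 to 39.5 CPM on chow and from 14.6 to 27.6 CPM on HFD. The Cry2 difference with HFD in Lama4 AKO mice was -0.48 on the log2 scale with a 95% interval from -0.97 to 0.01 (edgeR adjusted p = 0.131). Its edgeR adjusted p was 0.0489 in the 19 libraries and 0.0518 in the 18, without a call in either. Averaged over both genotypes, the Cry2 diet difference was -0.31 in all 24 (edgeR adjusted p = 0.185). In the 19 it was -0.54 (edgeR adjusted p = 0.0169), past the adjusted threshold, as were 51.9% of all genes there. In the 18 it was -0.52 (edgeR adjusted p = 0.0383), and neither set gave a call.

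The REV-ERB pair behaved unalike. Nr1d1, the more strongly rhythmic of the receptors in most tissues, had lowest, median and highest levels of 12.6, 19.3 and 59.6 CPM in chow-fed Lama4 fl/fl and 17.1, 21.9 and 34.2 CPM in chow-fed Lama4 AKO mice. On HFD they were 17.0, 22.1 and 38.9 CPM in Lama4 fl/fl and 16.2, 25.6 and 36.3 CPM in Lama4 AKO mice. The 4 groups overlapped throughout, and the HFD minus chow log2 difference in Lama4 AKO mice was 0.12 with a 95% interval from -0.53 to 0.77, and it turned to -0.02 without HFD-fed replicate 6.

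Nr1d2, the second receptor, was the clock gene with the clearest group difference. Its lowest, median and highest levels were 21.4, 29.2 and 31.9 CPM in chow-fed Lama4 AKO and 52.3, 69.6 and 85.2 CPM in HFD-fed Lama4 AKO mice. Every HFD-fed Lama4 AKO mouse was above every chow-fed one, a separation that 6.86% of all tested genes showed in that comparison. In Lama4 fl/fl mice the levels were 32.6, 46.2 and 76.0 CPM on chow and 23.7, 44.4 and 89.4 CPM on HFD, and these groups overlapped, with the HFD-fed group the widest of the 4. In Lama4 AKO mice Nr1d2 rose 2.50-fold with HFD, a log2 fold change of 1.32 (SE 0.268, edgeR adjusted p = 0.0124), higher in 6 of 6 mice. It was called without each library in turn, with log2 fold changes from 1.25 to 1.39 and edgeR adjusted p from 0.00526 to 0.0370.

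In Lama4 fl/fl mice the same diet difference of Nr1d2 depended on which libraries were used. In all 24 libraries it was 0.13 on the log2 scale, with a 95% interval from -0.41 to 0.67 (edgeR adjusted p = 0.904). The HFD-fed Lama4 fl/fl mice divided as they did along PC1. Replicates 1, 2 and 5 had 84.5, 48.1 and 89.4 CPM, and replicates 3, 4 and 6 had 40.8, 32.1 and 23.7 CPM. In the 19 libraries, which keep only the first of these sets, the log2 fold change was 0.78 (SE 0.219, edgeR adjusted p = 0.0126), still short of a call. Replicate 2 was 1 of only 3 HFD-fed Lama4 fl/fl mice there. In the 18 libraries without it the change was 1.01 (edgeR adjusted p = 0.00205) and was called. That made Nr1d2 the 1 clock gene called in Lama4 fl/fl mice in that set (13.4% of all genes). In the full set, leaving out replicate 2 gave 0.16, and leaving out replicate 1 or 5 turned the difference to -0.05 or -0.07. Averaged over the genotypes, Nr1d2 rose by 0.73 on the log2 scale (SE 0.187, edgeR adjusted p = 0.0257), and this call was lost without 13 of the 24 libraries in turn, with edgeR adjusted p from 0.00655 to 0.0523. With replicate 2 of the HFD-fed Lama4 fl/fl mice left out it was 0.74 and called.

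Between genotypes, Nr1d2 was lower in chow-fed Lama4 AKO than in chow-fed Lama4 fl/fl mice in these libraries. Every chow-fed Lama4 AKO mouse was below every chow-fed Lama4 fl/fl mouse, the highest at 31.9 and the lowest at 32.6 CPM, and 0.260% of all tested genes showed such a separation. The log2 difference was -0.81 (SE 0.265), with an edgeR adjusted p of 0.744, so it did not pass over all genes. The interaction was 1.19 (SE 0.373, edgeR adjusted p = 0.238), so a larger diet response in Lama4 AKO mice was not established. It was 0.57 in the 19 libraries (edgeR adjusted p = 0.443) and 0.34 in the 18 (edgeR adjusted p = 0.536). Clock and Nr1d2 were the 2 of 10 members with a nominal p of at most 0.05 for the interaction in all 24 libraries, as were 15.6% of all genes, and 0 of 10 had one in the 19. With the HFD-fed replicate 2 of the Lama4 fl/fl mice left out, the interaction was 1.17 (edgeR adjusted p = 0.137), and it met the call criteria when either replicate 1 or replicate 5 of that group was left out. On HFD alone the genotypes overlapped for Nr1d2, as they did for all 10 genes, and 0.533% of all tested genes did not overlap there. The Nr1d2 difference on HFD was 0.39 in all libraries and 0.36 without replicate 2 of the Lama4 fl/fl mice, but -0.09 in the 19 and -0.32 in the 18, none of them past the adjusted threshold.

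Dbp, the output activator, was the steadiest of the 10. Its lowest, median and highest levels were 12.8, 14.0 and 17.1 CPM in chow-fed Lama4 fl/fl and 9.89, 13.4 and 19.7 CPM in chow-fed Lama4 AKO mice. On HFD they were 8.99, 13.1 and 15.4 CPM in Lama4 fl/fl and 13.8, 15.8 and 18.4 CPM in Lama4 AKO mice. The groups overlapped, and over all 24 libraries Dbp spanned 2.19-fold, the narrowest range of the members. In Lama4 fl/fl mice, 0 of 10 members separated the diets without overlap (0.213% of all genes did).

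**Figure D2:**
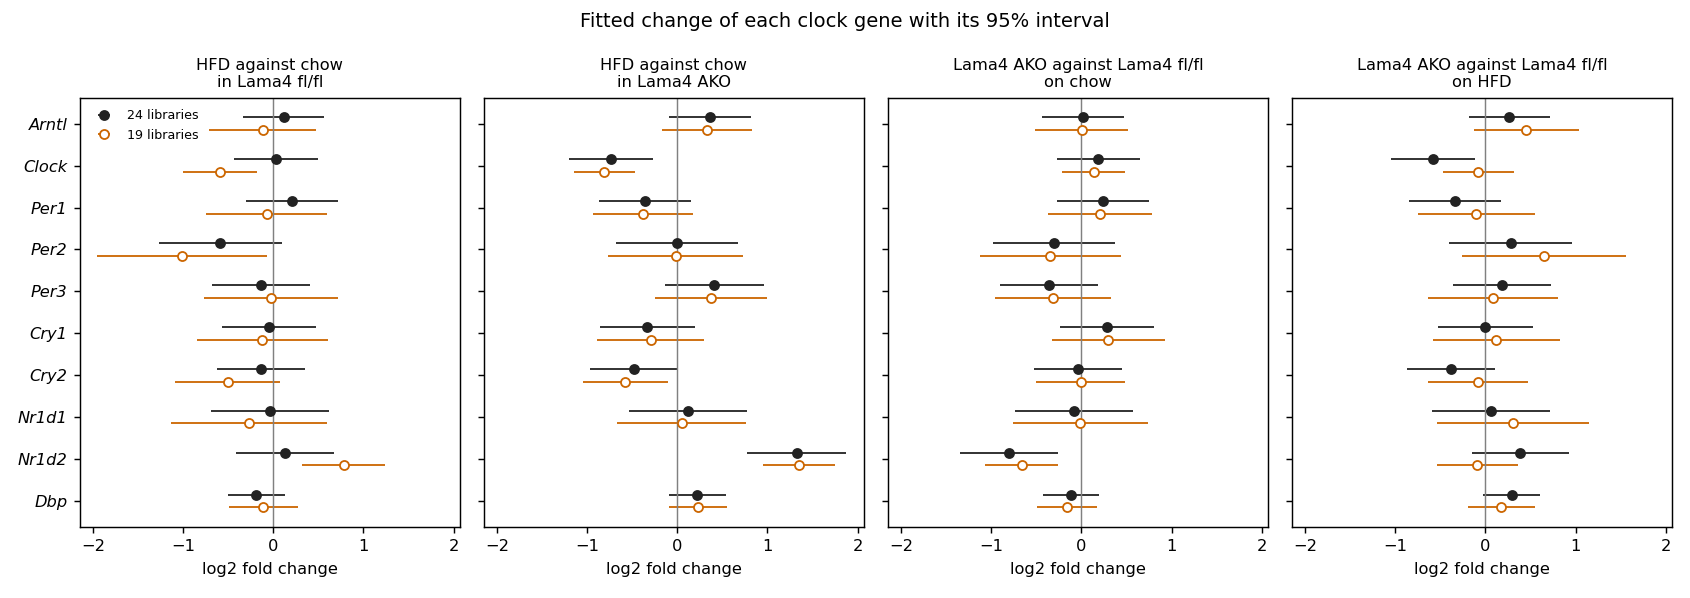
Fitted log2 fold change (x axis) of each clock gene (rows) in the 4 comparisons of diet and genotype, with 95% intervals, for all 24 libraries (filled) and the 19 libraries (open). Nr1d2 with HFD in Lama4 AKO mice stands at 1.32 in all libraries and 1.35 in the 19, and Clock in the same comparison at -0.74 and -0.81.

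The members that did not reach a nominal p of 0.05 spanned narrow ranges. With HFD in Lama4 fl/fl mice all 10 lay between -0.59 (Per2) and 0.21 (Per1) on the log2 scale, and in Lama4 AKO mice the other 8 lay between -0.48 (Cry2) and 0.41 (Per3). Between genotypes, 9 members lay between -0.36 (Per3) and 0.28 (Cry1) on chow and 9 between -0.38 (Cry2) and 0.39 (Nr1d2) on HFD. The median of the 10, beside that of all genes, was -0.04 against -0.01 for diet in Lama4 fl/fl mice, 0.06 against 0.00 for diet in Lama4 AKO mice, -0.06 against 0.00 for genotype on chow and 0.13 against -0.03 for genotype on HFD. Standard errors of these members ran from 0.152 to 0.330. Differences well past 1.5-fold were not called at such errors, such as that of Nr1d2 on chow at -0.81, so differences of that size in other members could have been missed, above all in Per2 and Nr1d1.

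In the 19 libraries each diet comparison called more genes, counted over all genes tested, than with all libraries. HFD against chow called 0 of 10 clock genes in Lama4 fl/fl (11.8% of all genes) and 2 of 10, Nr1d2 and Clock, in Lama4 AKO mice (15.7%), and the averaged comparison called the same 2 (21.2%). In the 18 libraries the same 2 were called in Lama4 AKO mice (16.5%) and in the averaged comparison (21.7%). Lama4 AKO against Lama4 fl/fl called 0 of 10 on chow (0.209%) and on HFD (0.565%), and the interaction 0 of 10 (0.680%). Nr1d2 with HFD in Lama4 AKO mice was 1.35 on the log2 scale in that set (SE 0.191, edgeR adjusted p = 9.64e-05).

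The position of each library on the clock was then described by differences between clock genes. Arntl minus Nr1d1 and Arntl minus Dbp set genes of opposite phase against each other. Per2 minus Nr1d1 compares genes that both peak opposite to Arntl. Arntl minus Nr1d1 on the log2 CPM scale had medians of -0.74 on chow and -0.92 on HFD in Lama4 fl/fl mice, and of -1.15 on chow and -1.24 on HFD in Lama4 AKO mice. Arntl minus Dbp had medians of -0.65, -0.32, -0.50 and -0.37 in the same order, and Per2 minus Nr1d1 of -1.14, -1.63, -1.30 and -1.34. All 4 groups overlapped in all 3 measures, and the medians of the groups differed by less than the range within any group. No p was computed for these measures, since they are built from the members.

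Single libraries stood further apart than the groups did. In chow-fed Lama4 fl/fl replicate 1, Arntl was the lowest of its group at 6.70 CPM, while Per2 (31.0 CPM), Per3 (34.0 CPM), Cry2 (39.5 CPM) and Nr1d1 (59.6 CPM) were the highest of all 24 libraries. Its Arntl minus Nr1d1 was -3.12, against -1.60 to -0.26 in the other 5 mice of the group. Its Dbp was 13.6 CPM, the second lowest of its group. That library also had the highest adipocyte marker sum of the series, 20341 CPM, the lowest macrophage marker sum, 1413 CPM, and the lowest PC1, -91.8. Whether clock time or tissue makeup set these values apart was not tested.

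HFD-fed Lama4 fl/fl replicate 2 was the other such library. Its Arntl of 3.99 CPM was the lowest of the series, its Arntl minus Dbp of -1.61 was the lowest of all libraries, and its Arntl minus Nr1d1 was -2.05. Within its group it had the highest Cry1 and the second highest Per1 (15.1 CPM) and Per2 (9.15 CPM), but the lowest Nr1d1 (17.0 CPM). The genes of opposite phase thus did not stand on 1 side of their group in this library.

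**Figure D3:**
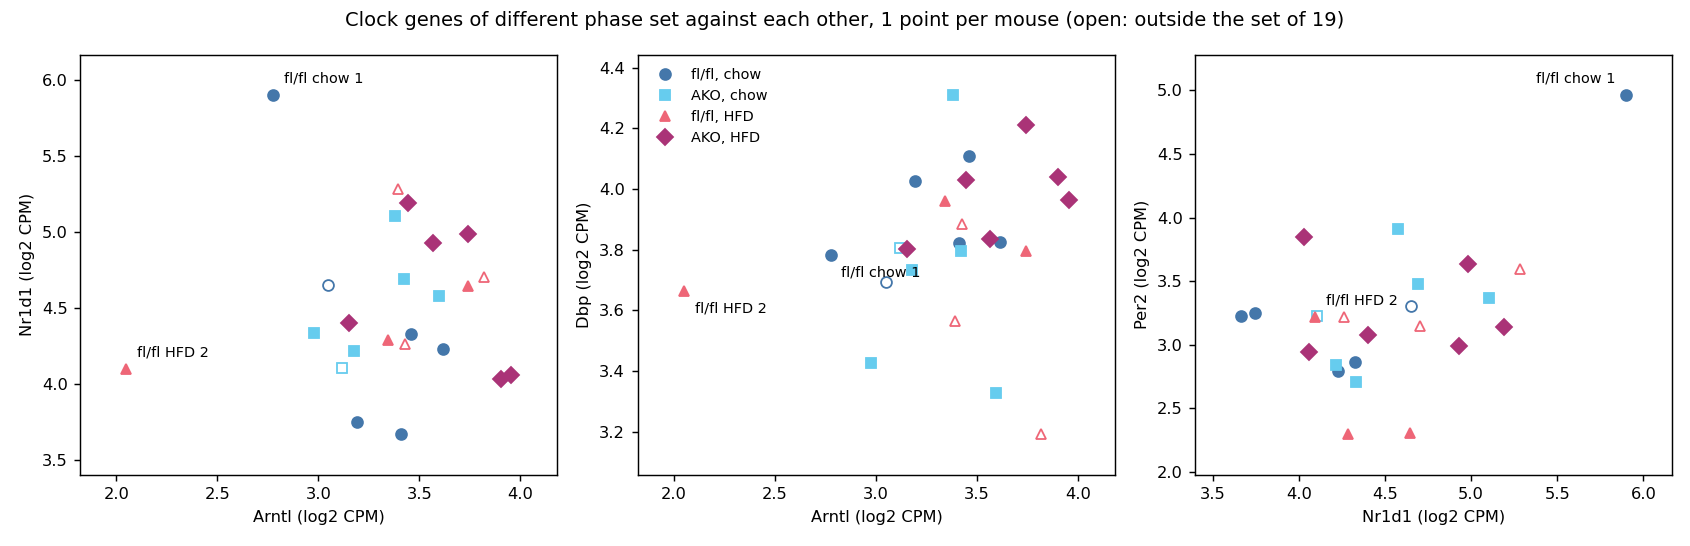
Nr1d1 against Arntl, Dbp against Arntl and Per2 against Nr1d1 (log2 CPM on both axes), 1 symbol per mouse with colours and shapes for the 4 groups and open symbols for the 5 libraries outside the set of 19. The groups overlap, and chow-fed Lama4 fl/fl replicate 1 (Nr1d1 59.6 CPM) and HFD-fed Lama4 fl/fl replicate 2 (Arntl 3.99 CPM) lie apart from the rest.

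The relation of the other genes to Arntl was tested across the 24 libraries with the group means removed, as the slope of every gene on Arntl in an edgeR fit. Of the other 9 clock genes, 0 had an adjusted p of at most 0.05, which 1.60% of 15019 genes had. At a nominal p of at most 0.05 stood 0 of the 9, beside 14.1% of all genes. With 9 genes, these counts cannot be read as fewer than those shares. Pearson's r of Arntl with Dbp was 0.04 (rho 0.12, permutation p = 0.866 and 0.595) and with Nr1d1 -0.06 (rho -0.12, permutation p = 0.773 and 0.600). The most negative was Cry1, at -0.37 (rho -0.25, permutation p = 0.148 and 0.277), which became -0.10 once the 2 libraries farthest from the median of Arntl were left out, the chow-fed replicate 1 and the HFD-fed replicate 2 of the Lama4 fl/fl mice. Without the same pair, r was 0.01 for Dbp and -0.03 for Nr1d1. The highest was Clock, at 0.39 (rho 0.30, permutation p = 0.143 and 0.193).

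Other members did vary together. Clock and Cry2 had an r of 0.80 (rho 0.78, permutation p = 1e-05, the smallest the permutations can give, and 4e-05), and the slope of Cry2 on Clock had an edgeR adjusted p of 3.39e-05. However, 51.1% of all tested genes passed that threshold against Clock. Clock and Nr1d2 ran against each other (r = -0.58, rho -0.55, permutation p = 0.0212 and 0.0190, slope with edgeR adjusted p = 0.00967), but r was 0.12 in the 19 libraries, and 40.0% of genes passed against Nr1d2. Cry2 and Nr1d1 had an r of 0.71 (rho 0.52, permutation p = 0.00110 and 0.0139), or 0.49 once HFD-fed Lama4 AKO replicate 6 and chow-fed Lama4 fl/fl replicate 1 were left out. Per2 and Cry1 had an r of 0.58 (rho 0.55, permutation p = 0.00248 and 0.0109), or 0.52 without the 2 libraries farthest in Per2, so this pair kept together when the outlying mouse was left out. These are 4 of the 45 pairs of members, and other pairs also had a permutation p of r of at most 0.05. Per2 and Cry2 had an r of 0.68 (rho 0.56, permutation p = 0.00478 and 0.00954), or 0.43 without the 2 libraries farthest in Per2. The rest were Per1 with Per2, Per2 with Nr1d1, Per3 with Nr1d1, Cry1 with Dbp, Cry2 with Nr1d2 and Nr1d2 with Dbp. Genes of 1 library share its depth and makeup.

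Of the members, Cry2 and Clock were the most strongly related to the adipocyte and macrophage marker sums. Within groups, Cry2 had an r of 0.92 with the log2 adipocyte marker sum (rho 0.88, permutation p = 1e-05 and 2e-05) and -0.93 with the macrophage sum. Clock had 0.79 (rho 0.79, permutation p = 0.000160 and 0.000100) and -0.89, and Nr1d2 had -0.67 (rho -0.71, permutation p = 0.00359 and 0.000590) and 0.52. Per2 had 0.63 (rho 0.52, permutation p = 0.00469 and 0.0229) and -0.68, and Nr1d1 had 0.61 (rho 0.48, permutation p = 0.00245 and 0.0197) and -0.63. With the 2 libraries farthest in the adipocyte sum left out, replicate 1 of the chow-fed and replicate 4 of the HFD-fed Lama4 fl/fl mice, r with that sum was 0.89 for Cry2, 0.69 for Clock, -0.72 for Nr1d2, 0.42 for Per2 and 0.38 for Nr1d1. Since the HFD-fed Lama4 fl/fl mice fall into separate sets, the same values were taken over the other 18 libraries, where r with the adipocyte sum was 0.95 for Cry2, 0.70 for Clock, 0.59 for Nr1d1, 0.58 for Per2 and -0.47 for Nr1d2. Over all 24, Arntl was at 0.06, Dbp at -0.44, and Per1, Per3 and Cry1 at 0.23 to 0.26. These r values come from 20 relations with the marker sums, and are large for many genes: 3.05% of all tested genes had a larger r in size than Cry2, 17.2% than Clock, 31.6% than Nr1d2, 36.2% than Per2 and 37.8% than Nr1d1.

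**Figure D4:**
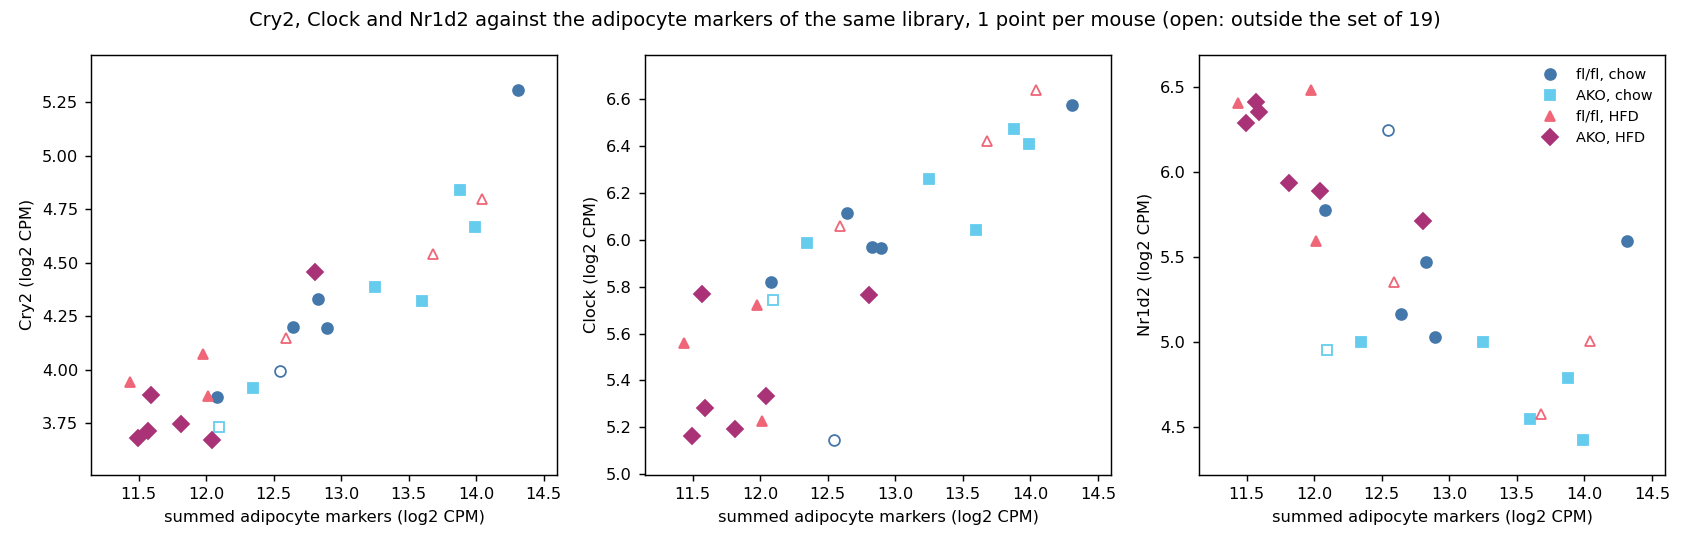
Cry2, Clock and Nr1d2 (log2 CPM, y axes) against the summed level of 8 adipocyte markers (log2 CPM, x axis), 1 symbol per mouse with open symbols for the 5 libraries outside the set of 19. Cry2 and Clock are higher and Nr1d2 lower where the marker sum is higher, and chow-fed Lama4 fl/fl replicate 1, at the right edge, has the highest Cry2 (39.5 CPM).

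The same markers differed between the diet groups in which Nr1d2 and Clock differed. In Lama4 AKO mice the adipocyte sum ran from 4385 to 16240 CPM on chow and from 2892 to 7157 CPM on HFD, and 7 of the 8 markers were lower on HFD at a nominal p of at most 0.05, which 39.8% of all tested genes had in that comparison. The macrophage sum ran from 2014 to 7661 CPM on chow and from 6278 to 11855 CPM on HFD, with 4 of 8 markers higher and 1 lower at that level. All 6 endothelial and 4 of 5 mesothelial markers were lower, and 2 of 6 stromal progenitor markers were higher. The part of these shifts in the Nr1d2 and Clock differences was not tested.

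**Figure D5:**
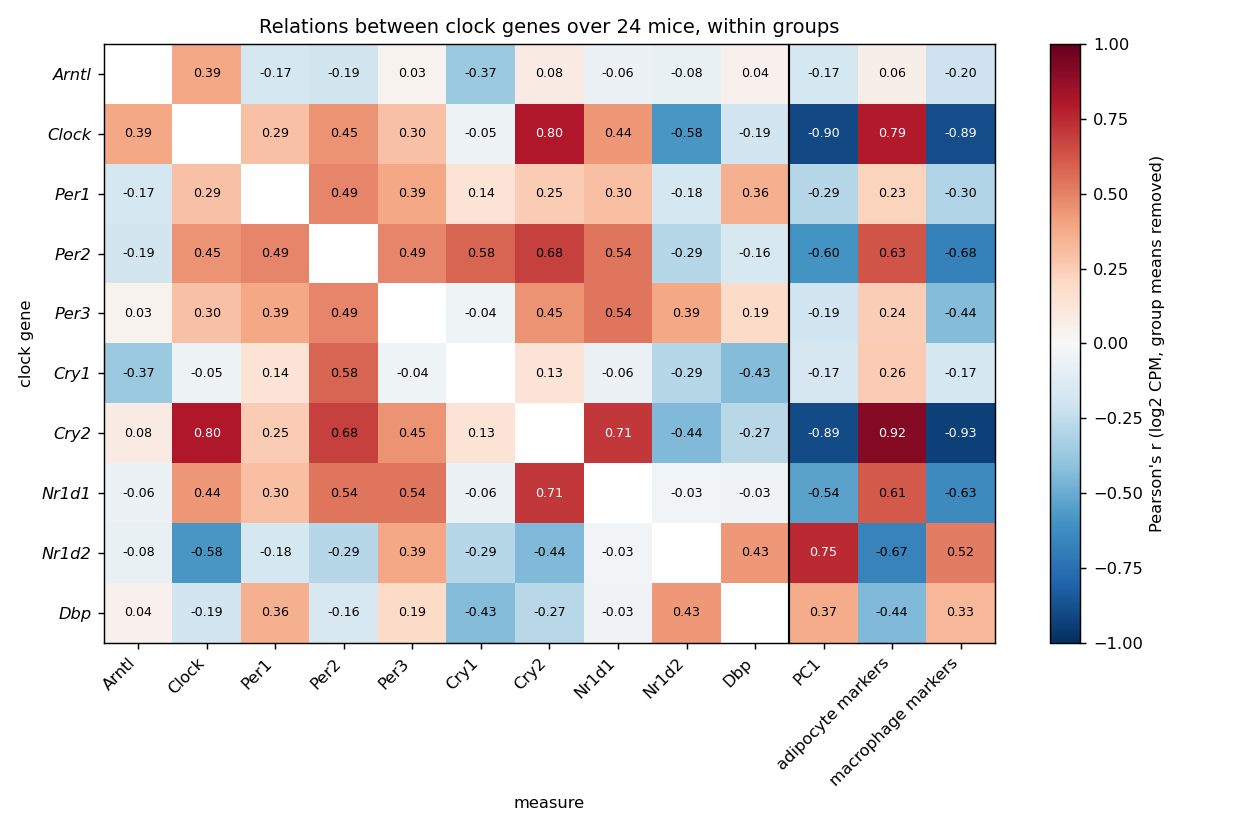
Pearson's r between clock genes over 24 mice with group means removed (colour from -1 to 1, value in each cell), and to the right of the line with PC1 and with the log2 sums of the adipocyte and macrophage markers. The Arntl row is pale, from -0.37 to 0.39 among the clock genes, while Cry2 and Clock reach 0.92 and 0.79 with the adipocyte sum.

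Spread between mice of 1 group was measured as the within-group SD of log2 CPM and set beside genes of like level (within 0.5 on the log2 scale of mean CPM). Per2 (0.560) and Nr1d1 (0.556) had the widest spread of the members, wider than 75.1% and 83.6% of genes of like level. Dbp had the narrowest, 0.247, wider than only 20.1% of genes of like level. Dbp is known as one of the most strongly rhythmic transcripts of peripheral tissues, and the small spread here is given as a measurement only. Arntl, at 0.403, was wider than 56.0%.

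The genes whose within-group pattern was most like that of Arntl, among 10707 genes outside the members with a mean of at least 5 CPM, were Med6 (r = 0.92), Lrrc57 (0.88), Ccdc58 (0.88), Ramac (0.87) and Ccl11 (0.86) over 24 libraries. Without the 2 libraries farthest in Arntl these were 0.82, 0.78, 0.76, 0.73 and 0.76. The most opposed were Cmtr1 (-0.80), Zfp768 (-0.79), Ilvbl (-0.77), Tmem63a (-0.76) and Plekhg3 (-0.75). The members were left out of this ranking, so none of them could appear in it. Their own r with Arntl ran from -0.37 (Cry1) to 0.39 (Clock). For Dbp, the most alike were Hmg20b (0.80), Il1rl2 (0.75), Cpxm1 (0.74), Tmem86a (0.74) and Manba (0.74), and the most opposed Txnl4a (-0.89), Dnaja1 (-0.82) and Ndufv3 (-0.81). These r values are descriptions over libraries that share depth and makeup.

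Other regulators of the loop were counted from a fixed list of 10, of which 9 were in the table and 8 passed the filter. In the averaged diet comparison 0 of 8 were called (2.22% of all genes). At a nominal p of at most 0.05, a level that 35.5% of all genes reached, 2 were higher and 2 lower. Npas2 and Bhlhe41 were called higher in the 19 libraries, 2 of the 8 (21.2% of all genes were called in the averaged comparison there). The higher were Npas2, a stand-in for Clock, with a log2 fold change of 1.09 (edgeR adjusted p = 0.0391), and Bhlhe41, which represses E-box genes, with 0.91 (edgeR adjusted p = 0.0461). The lower were Rora, the activator that competes with the REV-ERB receptors at ROR elements, with -0.29, and Hlf, a relative of Dbp, with -0.77, neither past the adjusted threshold. In Lama4 AKO mice Npas2 was at 0.359 to 6.15 CPM on chow and at 3.04 to 9.69 CPM on HFD, with a log2 fold change of 1.62 (edgeR adjusted p = 0.0264). Clock and its stand-in thus had changes of opposite sign in that comparison, with overlapping groups for both.

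Of the kinases and ubiquitin ligases that set the stability of the clock proteins, all 9 listed were tested. In Lama4 AKO mice HFD called 2 of them lower, Usp2 and Gsk3b (4.12% of all genes were called). Usp2, a ubiquitin protease with rhythmic expression, was at 11.3, 20.5 and 34.4 CPM (lowest, median and highest) on chow and at 6.90, 7.95 and 11.1 CPM on HFD. The 2 groups did not overlap, as for 6.86% of all genes, and the log2 fold change was -1.44 (SE 0.291, edgeR adjusted p = 0.0124). In Lama4 fl/fl mice it was 0.04 (edgeR adjusted p = 0.973), and the interaction of -1.49 did not pass (edgeR adjusted p = 0.229). These were -0.73 (edgeR adjusted p = 0.0503) and -0.84 (edgeR adjusted p = 0.329) in the 19 libraries. Gsk3b, a kinase, fell by 0.59 on the log2 scale (SE 0.152, edgeR adjusted p = 0.0187). In the averaged comparison 0 of 9 were called (2.22% of all genes), with a list median of -0.36. At a nominal p of at most 0.05 (35.5% of all genes), 4 were higher, among them Csnk1d 0.41, Fbxw11 0.50 and Btrc 0.37. At that level 5 were lower (Csnk1a1 -0.38, Csnk1e -0.57, Gsk3b -0.36, Fbxl21 -0.68, Usp2 -0.70). For diet in Lama4 AKO mice the list median was -0.56 beside 0.00 for all genes. In the 19 libraries 8 of the 9 passed the filter. The list median there was -0.08 averaged, with 2 called higher and 3 lower (21.2% of all genes were called). It was -0.16 in Lama4 AKO mice, with 2 called higher and 4 lower (15.7% of all genes).

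Of 6 clock output genes 5 were tested, and 0 were called in the averaged diet comparison (2.22% of all genes). Only Noct, a rhythmic deadenylase, had a nominal p of at most 0.05 there (log2 fold change 0.42, edgeR adjusted p = 0.0587), as had 35.5% of all genes. Signals that can reset the clock were counted as well. Of 6 glucocorticoid response genes, Mt2 was called lower in the averaged diet comparison (-0.61, edgeR adjusted p = 0.0237), where 2.22% of all genes were called. In Lama4 AKO mice 4 of 6 were lower at a nominal p of at most 0.05 (39.8% of all genes). Their summed level ran from 725 to 1407 CPM in chow-fed and from 568 to 873 CPM in HFD-fed Lama4 AKO mice. Of 7 immediate early genes, which report handling and stress, 0 were called in the averaged diet comparison (2.22% of all genes). Their sums ran from 139 to 306 CPM over all libraries. Counts of 0 in lists this short cannot be read as fewer than that share.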

How the data were processed

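The eWAT of 24 mice was sequenced with the QuantSeq 3′ kit. Read mapping and counting were done by the authors in Lexogen's QuantSeq pipeline on Bluebee (GRCm38 in the submitters' processing notes) and the authors deposited raw counts per gene, with no normalization, and a second table with a normalized signal, which is the same counts divided by 1 size factor per library and was used for gene symbols, positions and 1 alternative. The tests used edgeR 4.0.16 under R 4.3.3. A gene was kept when 3 or more libraries reached 1 CPM, TMM factors were used, and 1 quasi-likelihood model with a coefficient per group was fitted to all genes, with Benjamini-Hochberg adjustment over them. Library totals of 5579590 to 18764516 counts set the counting error. Relations within groups were tested with 100000 permutations of mice inside each group, two-sided. Alternatives used limma 3.58.1 (voom), DESeq2 1.42.0, RLE factors, no filter, adjusted p-values, the 19 libraries, the replicate number as a block, and each library left out. Added after seeing the data were limma-voom on the 19 libraries, the 18 libraries and the relations to members other than Arntl, PC1 and marker sums. Fits were tested on simulated counts. All 10 members were described, other clock genes by fixed lists, naming those with a nominal p of at most 0.05 in the averaged diet comparison and the 2 called in Lama4 AKO mice, which were named after their values were seen. The members and lists were chosen with earlier results of these data known. Which mice shared a cage or litter is not given in the sources used here. The edgeR p-values set differences and slopes against the spread between these mice. The values of 1 listed gene are not reported here.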

Additional observations from a re-analysis of the deposited data

Results flagged for a closer look

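In 4 of 40 sets of 6 mice (10 genes in 4 groups), 1 mouse lay beyond Dixon's 95% limit, where chance gives about 1 in 20. Arntl was 2.05 on the log2 CPM scale in HFD-fed Lama4 fl/fl replicate 2, with the other 5 mice between 3.34 and 3.82. Chow-fed Lama4 fl/fl replicate 1 had a Per2 of 4.96 (others 2.79 to 3.30) and a Cry2 of 5.31 (others 3.88 to 4.33). HFD-fed Lama4 AKO replicate 6 had a Cry2 of 4.46 (others 3.67 to 3.88), and it also had the highest adipocyte marker sum of its group, 7157 CPM.

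The diet effect differed between the genotypes at a nominal p of at most 0.05 for Clock, with an interaction of -0.77 on the log2 scale, and for Nr1d2, with 1.19. Neither passed the adjustment over all genes (edgeR adjusted p = 0.275 and 0.238). At that nominal p stood 15.6% of all genes. In the 19 libraries the interactions were -0.21 and 0.57, both short of it, and in the 18 (without HFD-fed Lama4 fl/fl replicate 2 as well) -0.34 and 0.34.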

How the results depend on the processing

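The number of clock genes called was 0 in every alternative for both genotype comparisons, and 0 for diet in Lama4 fl/fl mice except in the 18 libraries, with 1. For diet in Lama4 AKO mice it was 1, and 2 with the 19 libraries, the 18, adjusted p-values and limma-voom on the 19 libraries; leaving out single libraries gave 1 to 1. For the averaged diet comparison it was 1, but 0 with limma-voom, 0 with the replicate block, 2 with the 19 libraries, with the 18 and with limma-voom on the 19, and 0 to 1 with single libraries left out: 0 without replicate 1, 4, 5 or 6 of chow-fed Lama4 fl/fl, 1, 2, 3 or 5 of chow-fed Lama4 AKO, 1 or 5 of HFD-fed Lama4 fl/fl, or 2, 4 or 5 of HFD-fed Lama4 AKO mice. The interaction gave 0 to 1 with single libraries left out, 1 without HFD-fed Lama4 fl/fl replicate 1 or 5. With the replicate block the averaged Nr1d2 change was 0.67 on the log2 scale (edgeR adjusted p = 0.0503). Of 36 same-numbered pairs of mice, 15 correlated above 0.1 (median r 0.00, against -0.01 for mice of other numbers). Such r values cannot tell whether the numbers mark a shared cage, litter or processing order, which is not given in the sources used here. The sign turned for Arntl in Lama4 fl/fl mice (-0.12 in the 19 libraries, -0.28 with limma-voom on them), for Clock in the same mice (-0.60 and -0.59, or -0.47 in the 18; -0.13 to 0.18 with single libraries left out, below 0 without replicate 2 or 3 of the chow-fed or 4 or 6 of the HFD-fed group), and for Nr1d2 between genotypes on HFD (-0.091, -0.062 and, in the 18, -0.32). With single libraries left out it also turned for Nr1d2 in Lama4 fl/fl mice (-0.066 to 0.303) and for Nr1d1 in Lama4 AKO mice (-0.020 to 0.259, and -0.0014 with limma-voom on the 19). No other log2 fold change recomputed for Arntl, Clock, Cry2, Nr1d1 or Nr1d2 turned. The 3 clock positions moved by less than the spread between mice with the deposited normalized values. The cause of these changes was not tested, apart from fewer libraries or another threshold.

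Over all genes, calls for diet in Lama4 fl/fl, diet in Lama4 AKO, genotype on chow, genotype on HFD, the interaction and the averaged diet were 26, 619, 17, 26, 58 and 334. With DESeq2 they were 60, 1315, 41, 81, 148 and 619, with the 19 libraries 1750, 2332, 31, 84, 101 and 3149, with the 18 1992, 2446, 34, 303, 258 and 3223, and at an adjusted p of at most 0.05 they were 0, 3315, 0, 0, 1 and 1859. The replicate block gave 10 for genotype on chow and 32 for the interaction. Single libraries left out gave 14 to 63, 299 to 1169, 4 to 65, 13 to 91, 29 to 188 and 202 to 684, in the same order. The lowest counts came without HFD-fed Lama4 fl/fl replicate 1 for diet in Lama4 fl/fl and averaged, HFD-fed Lama4 fl/fl replicate 4 for genotype on HFD, and chow-fed Lama4 AKO replicate 3 for the others. The 3′ tags give no isoforms, and collection time limits what can be said of clock phase.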
